A study of Homo sapiens with 4 samples.

Results

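Transcripts of 40 genes for peroxisome assembly and for the oxidation of fatty acids were followed through 4 RNA-seq libraries. The genes were taken from a named list of peroxins, peroxisomal enzymes and enzymes of mitochondrial beta-oxidation, matched by Entrez Gene identifier, and all 40 are present in the tables, out of 17009 usable identifiers for the vector pair and 16856 for the siRNA pair. All cells are labelled HepG2, a human line from a liver tumour. The groups hold 1 library each: cells transfected with vector, cells transfected with FLAG-JFK (JFK is another name of FBXO42, an F-box subunit of a ubiquitin ligase), cells given a control siRNA, and cells given an siRNA against ING5, a subunit of histone acetyltransferase complexes. No clone, time after transfection or siRNA sequence is stated in the sources used here.

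Peroxisomes are single-membrane organelles that import folded enzymes from the cytosol. Peroxins build the membrane, carry the enzymes in and recycle the carriers. Very long and branched fatty acids are shortened there, with hydrogen peroxide as a by-product that catalase removes, and the first steps of ether lipid synthesis take place in the same organelle. Long-chain fatty acids enter mitochondria on carnitine and are cut in repeated rounds of dehydrogenation, hydration, a second dehydrogenation and thiolysis, while electron transfer flavoprotein passes electrons on to the respiratory chain. In liver these routes are under the control of the nuclear receptor PPAR-alpha.

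Total counts were 7179585 in vector, 7237325 in the library labelled JFK, 9196979 in control siRNA and 9030075 in ING5 siRNA, and the 40 genes took 0.239%, 0.230%, 0.264% and 0.263% of them. FBXO42 had 116 counts in vector against 115 in the library labelled JFK (log2 fold 0.01, counting interval -0.37 to 0.40), which goes against the label, and "the library labelled JFK" is written throughout. ING5 had 144 counts with control siRNA and 81 with ING5 siRNA, a normalised level of 57.0%. Of 18 genes for proteins that hepatocytes secrete, 2 reached 20 counts in each library: VTN, with 376 to 2598, and RBP4, with 34 to 61. The albumin gene ALB was at 0 in all 4 libraries, as were APOA2, APOH, TTR, TF and AMBP. Most of these secreted-protein genes go against the HepG2 label, and the identity of the cells was not tested. Of 10 hepatocyte transcription factor genes 3 reached 20 counts in each library, and HNF4A had 51 to 91. Summed marker levels of other cell types differed mainly between the pairs: 7 fibroblast genes came to 76.3 and 79.0 CPM in the vector pair and to 96.1 and 94.1 in the siRNA pair, 5 endothelial genes to 145 and 164 against 26.5 and 12.4, 6 leukocyte genes to 183 and 184 against 61.4 and 50.4, and 4 breast or squamous carcinoma genes, nearly all KRT17, to 2928 and 3811 against 295 and 255. CDH5 carried most of the endothelial sum, with 995 and 1132 counts in the vector pair against 224 and 87. PECAM1 had 42.78 and 41.32 against 16 and 21, while VWF had at most 12, TEK at most 3 and KDR at most 0.74. Of the leukocyte genes CD68 carried nearly the whole sum, with 1182.58 and 1246.81 counts in the vector pair against 550 and 437, LYZ had 114.98 and 72.19 against 13 and 13, PTPRC had at most 8 and CD3E was at 0 in all 4 libraries. The part of other cells in the results was not tested, and in bulk RNA fewer cells of a type and less RNA per cell cannot be told apart.

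Folds are log2 ratios of counts brought to a common depth by TMM (trimmed mean of M-values) factors, with 0.5 added. The interval beside a fold is an exact 95% one (Clopper-Pearson, from both counts). It covers counting error only and not variation between libraries. PCR copies of a molecule cannot be told from separate molecules, and the interval does not allow for them. Each group is 1 library, so differences lack a replicate check, no p-value is given, and the values describe libraries and not conditions. Genes count as measured where the normalised counts of a pair average at least 20. This held for 39 of the 40 genes in both pairs. The exception was ACOX2, the oxidase for branched fatty acids and bile acid precursors, with 3 counts in vector, 2 in the library labelled JFK, 3 in control siRNA and 2 in ING5 siRNA.

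Most genes of these pathways stood close to their controls in both pairs. In the library labelled JFK 0 of 39 stood above control by 1.5-fold or more and 0 stood below it by as much, where 1.5% and 2.07% of all 12107 measured genes did. With ING5 siRNA 0 of 39 stood above control by 1.5-fold or more and 1 stood below it by as much, where 4.01% and 4.40% of 11634 measured genes did. The median log2 fold of the 39 was -0.02 in each pair, against 0.00 and -0.01 over all measured genes. The lowest values in both pairs belonged to the same 3 genes: AGPS, which makes the ether bond of plasmalogens, HADH, the short-chain hydroxyacyl-CoA dehydrogenase, and ACAD11, an acyl-CoA dehydrogenase. Those 3 are also the measured members whose listed count and listed FPKM or RPKM disagree in both treated libraries, as described next.

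AGPS had 947 counts in vector, 701 in the library labelled JFK, 1270 in control siRNA and 952 in ING5 siRNA, or 130, 98.1, 139 and 105 CPM on the TMM scale. The normalised fold was 0.753 in the first pair (log2 -0.41, interval -0.55 to -0.27) and 0.758 in the second (log2 -0.40, interval -0.52 to -0.28). HADH had 519, 379, 490 and 348 counts in the same order, with log2 folds of -0.43 (-0.62 to -0.24) and -0.48 (-0.68 to -0.28). ACAD11 had 186.08, 139.56, 43 and 28 counts, with log2 folds of -0.39 (-0.71 to -0.06) and -0.59 (-1.34 to 0.12), the latter the only value past 1.5-fold and with an interval that spans 0. In each pair the treated library was the lower one for all 3 genes. The ACAD11 counts of the vector pair are not whole numbers, so reads may have been divided between genes there and its values are uncertain. Other members, such as CPT1A, ABCD3 and PEX13, have non-whole counts in that pair too, and the same limit holds for them.

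For these 3 genes the count and the level per length disagree in the treated tables. The count implied by the deposited RPKM, the gene length and the depth of the ING5 siRNA table is 905 for AGPS, 330 for HADH and 26.4 for ACAD11, so the listed counts are 1.05, 1.06 and 1.06 times as large. The control siRNA table shows no such gap for them. The deposited RPKM of ING5 siRNA divided by that of control siRNA is 0.72 for AGPS, 0.68 for HADH and 0.62 for ACAD11, and each ratio departs from that 2-decimal number by less than 2e-07. In all, 112 genes of that library have a count that does not match their RPKM within 0.001 counts, all 112 with a lower count in ING5 siRNA than in control siRNA, and for 62 of them (55.4%) the RPKM ratio falls on a multiple of 0.001 within 2e-07. For 106 of them (94.6%) it falls on a multiple of 0.0001 within the same tolerance. Among 15082 genes with values in both libraries whose count and RPKM match, the first holds for 1 and the second for 41 (0.272%). How these entries arose was not tested.

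The library labelled JFK also lists counts above the implied ones for the same 3 genes. Its listed counts are 1.037 times those implied by FPKM for AGPS, 1.024 times for HADH and 1.031 times for ACAD11, while in vector the 3 lie at 1.008, 0.995 and 1.002 times. Among 7617 genes with a whole gene length, at least 20 counts and at least 1 FPKM in both libraries, 5 have a count more than 2% above the implied one in the library labelled JFK, and AGPS, ACAD11 and HADH are 3 of those 5. The other two are CHPF2 and AMD1, named after their values were seen. In vector 31 genes do. The ACAD11 count in the library labelled JFK is 0.75 times that of vector to the last decimal given. For AGPS and HADH the count ratios are 0.7402 and 0.7303. The FPKM of this pair has 2 decimals, too few to place its ratios as was done for RPKM. Of 2532 genes with non-whole counts in both libraries and at least 100 in vector, 2 have a count ratio on a multiple of 0.05 within 2e-06, and ACAD11 is 1 of the 2. A wider rule compares count and FPKM between the libraries of this pair, within 2% beyond rounding. By that rule 4 of 39 measured members disagree, against 915 of all 12107 measured genes. SCP2, the sterol carrier and thiolase of peroxisomes, is among the 4. It had 503 and 460 counts (log2 -0.10) but 38.3 and 32.8 FPKM (log2 -0.23). Its listed count lies at 0.942 times the implied one in vector.

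**Figure D1:**
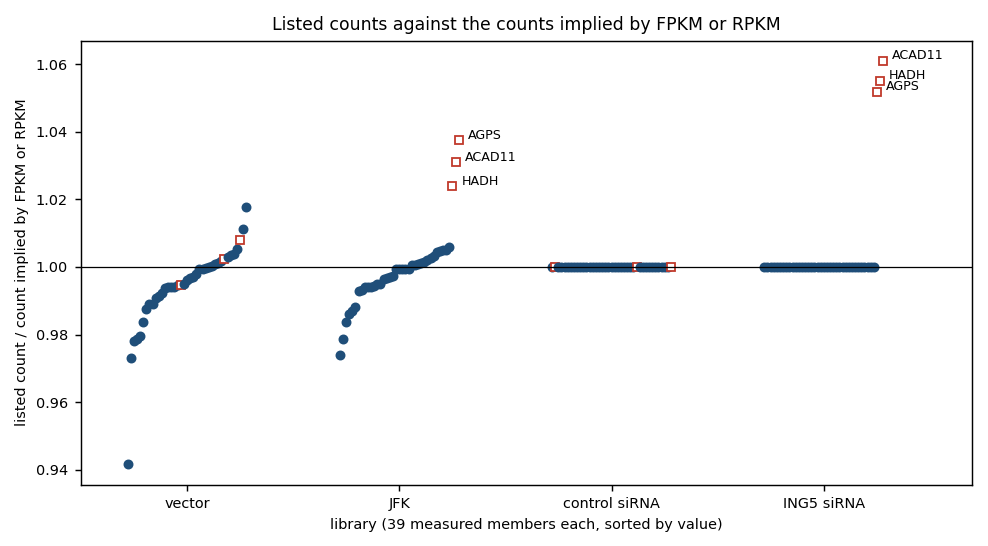
Listed count divided by the count that the deposited FPKM or RPKM implies (y axis, a ratio with no unit) for the 39 measured members in each of the 4 libraries (x axis), sorted by value within a library; open red squares are AGPS, HADH and ACAD11. The 3 squares stand at 1.024 to 1.037 in the library labelled JFK and at 1.05 to 1.06 in ING5 siRNA, above all filled points of those libraries.

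Without these 3 genes the set has 36 measured members. None of the 36 was 1.5-fold apart in either pair, and the medians became -0.0026 and -0.01. The counting interval lay wholly below 0 for 4 of 39 in the library labelled JFK and for 1 of 36 without the 3 genes, where 11.2% of all measured genes do. It lay wholly above 0 for 3, where 14.3% do. With ING5 siRNA it lay wholly below 0 for 7 of 39 and for 5 of 36, against 20.6% of measured genes, and wholly above 0 for 3, against 18.3%.

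**Figure D2:**
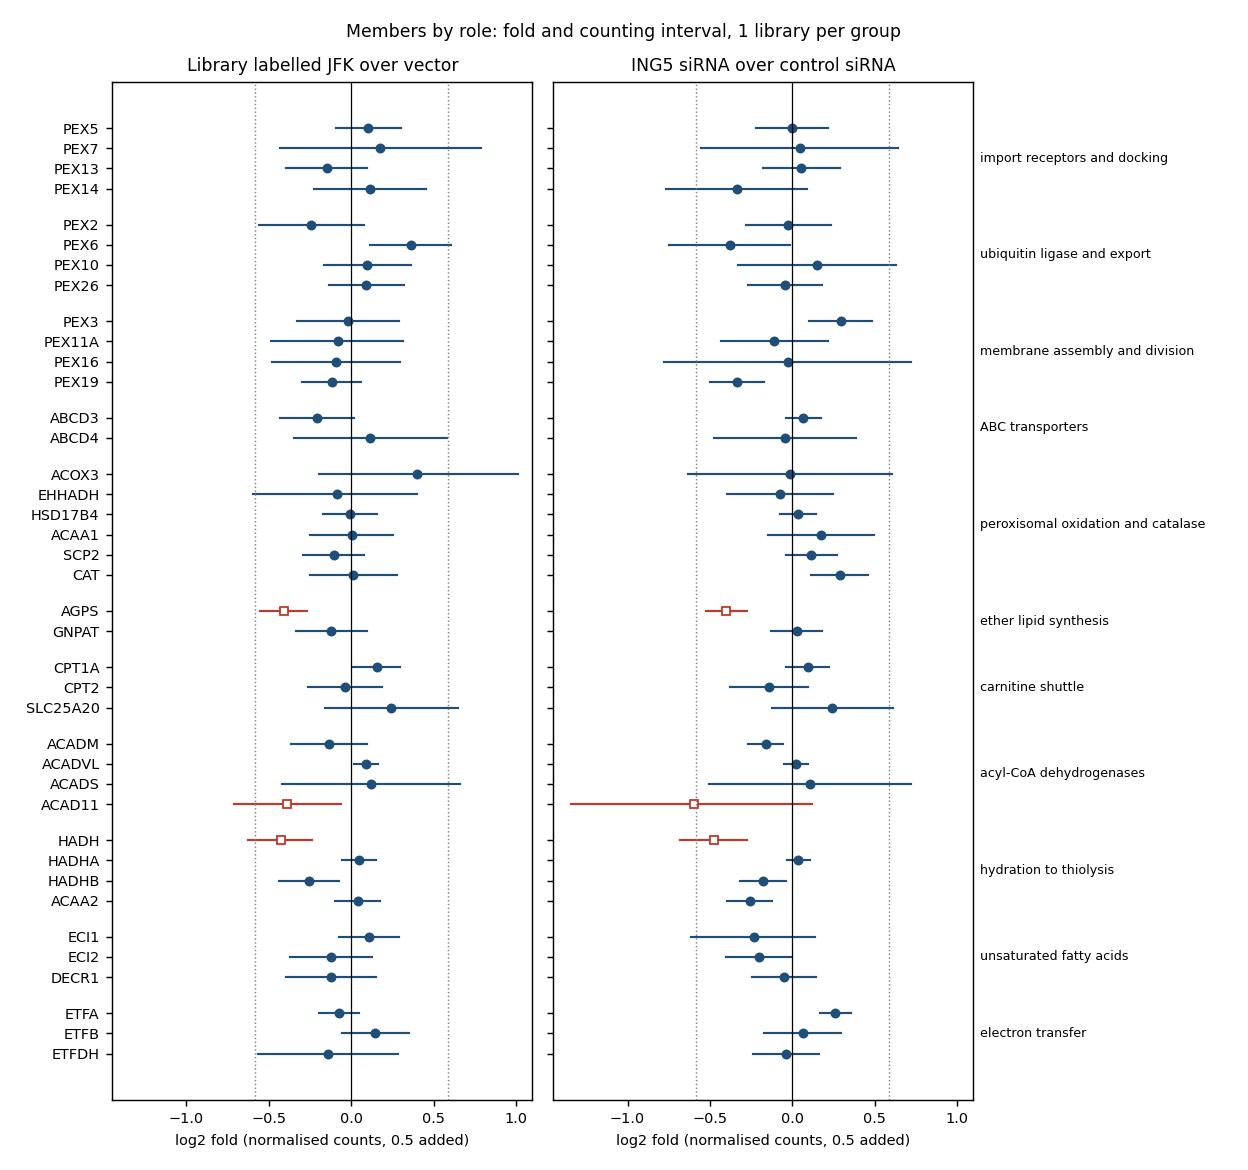
Log2 fold of normalised counts (x axis, 0.5 added) for the 39 measured members, grouped by role (y axis), in the library labelled JFK over vector (left) and ING5 siRNA over control siRNA (right). Points are single-library folds, bars are 95% counting intervals, dotted lines mark 1.5-fold, and open red squares are AGPS, HADH and ACAD11, which hold the lowest values of both panels, from -0.39 to -0.43 on the left and from -0.40 to -0.59 on the right.

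Among peroxins the import receptors and their docking partners had counting intervals that spanned 0 in both pairs. PEX5, the receptor for enzymes with a C-terminal signal, had 417 counts in vector, 441 in the library labelled JFK, 351 in control siRNA and 347 in ING5 siRNA (log2 0.10 and -0.0005, both intervals spanning 0). PEX7, the receptor for the N-terminal signal used by AGPS and ACAA1, had 45, 50, 49 and 50 counts. Its log2 folds were 0.17 (-0.43 to 0.79) and 0.04 (-0.55 to 0.64), so counts this low leave room for a change of 1.5-fold. PEX14, which forms the docking site with PEX13, had 143, 152, 106 and 83 counts, with log2 folds of 0.11 (-0.23 to 0.45) and -0.34 (-0.77 to 0.09). PEX13 had 292.85, 259.83, 302 and 310 counts, with log2 folds of -0.15 and 0.05.

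The receptor-recycling genes included the 1 member whose intervals lay on opposite sides of 0 in the pairs. PEX6, an AAA ATPase that pulls used receptors out of the membrane, had 247 counts in vector against 312 in the library labelled JFK (log2 0.36, interval 0.12 to 0.61), and 146 in control siRNA and 111 in ING5 siRNA (log2 -0.38, interval -0.75 to -0.01). Over all genes measured in both pairs 3.61% had an interval above 0 in the first pair and below 0 in the second. The reverse held for 0 members and 2.42% of genes, and an interval above 0 in both pairs for 0 members and 2.84% of genes. PEX26, the membrane anchor of PEX6, stood at 0.09 and -0.05. PEX2 and PEX10, RING subunits of the ligase that tags the receptor, stood at -0.24 (-0.56 to 0.08) and 0.10 (-0.17 to 0.36) in the library labelled JFK, and at -0.02 and 0.15 with ING5 siRNA.

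The membrane-assembly peroxins PEX3 and PEX19 stood on opposite sides of control with ING5 siRNA. PEX3, the membrane docking factor, had 414 counts in control siRNA and 502 in ING5 siRNA (log2 0.29, interval 0.10 to 0.49), while its soluble partner PEX19, the chaperone for membrane proteins, had 708 and 555 (log2 -0.33, interval -0.50 to -0.17). In the vector pair PEX3 had 179 and 174 counts (log2 -0.02) and PEX19 552 and 500 (log2 -0.12, interval -0.30 to 0.06). PEX16, which acts with PEX3, had 117, 108, 33 and 32 counts, and PEX11A, which promotes division, 110.87, 103.03, 168 and 154, with all their intervals spanning 0. For the 12 peroxins together the median was 0.04 in the library labelled JFK and -0.03 with ING5 siRNA.

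The transporters and oxidising enzymes of the peroxisome showed few differences. ABCD3, the membrane transporter for branched and dicarboxylic acyl-CoAs, had 362.89, 309.29, 1408 and 1459 counts (log2 -0.21, interval -0.43 to 0.01, and 0.07, interval -0.04 to 0.17). ABCD4, a family member that acts in lysosomal cobalamin export, stood at 0.11 and -0.05. The bifunctional enzymes EHHADH and HSD17B4 stood at -0.09 and -0.01 in the library labelled JFK, and at -0.07 and 0.04 with ING5 siRNA. The thiolase gene ACAA1 stood at 0.00 and 0.17, and SCP2 at -0.10 and 0.12, with intervals spanning 0.

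ACOX3, a branched-chain oxidase, held the highest fold of the vector pair, with 43 counts in vector against 56 in the library labelled JFK, and an interval of -0.19 to 1.01 around 0.40. It had 47 and 46 counts in the siRNA pair. Catalase differed in the siRNA pair: CAT had 497 counts in control siRNA and 600 in ING5 siRNA (log2 0.29, interval 0.11 to 0.46), against 240 and 238 in the vector pair (log2 0.01). GNPAT, which performs the acylation before the AGPS step in ether lipid synthesis, had 376, 340, 698 and 703 counts, with log2 folds of -0.12 (-0.34 to 0.09) and 0.03 (-0.13 to 0.18). The AGPS and GNPAT intervals do not overlap in the siRNA pair. The AGPS count in ING5 siRNA disagrees with its RPKM, however, so its interval cannot be read as counting error and no contrast between the steps is drawn.

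The carnitine shuttle was slightly above control for its entry enzyme. CPT1A, the outer-membrane transferase that limits entry, had 792.99 counts in vector against 867.59 in the library labelled JFK (log2 0.15, interval 0.01 to 0.30), and 910 and 960 in the siRNA pair (log2 0.09, interval -0.04 to 0.23). SLC25A20, the carnitine-acylcarnitine translocase, stood at 0.24 in both pairs, with 97, 113, 117 and 137 counts and intervals of -0.16 to 0.65 and -0.12 to 0.61. CPT2, the inner transferase, stood at -0.04 and -0.14.

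Among acyl-CoA dehydrogenases, ACADVL for very long chains had 2921, 3053, 3154 and 3166 counts. Its log2 folds were 0.09 (0.01 to 0.16) and 0.02 (-0.05 to 0.09), so an interval excluded 0 in the first pair at a fold of 1.06. ACADM, for medium chains, had 329, 295, 1542 and 1363 counts, with log2 folds of -0.13 (-0.36 to 0.10) and -0.16 (-0.27 to -0.06). ACADS, for short chains, had 58, 62, 46 and 49 counts and stood at 0.12 and 0.11.

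The trifunctional protein has alpha and beta subunits that come from neighbouring genes, and these genes did not show the same folds. HADHA, the alpha subunit, had 1526, 1551, 3087 and 3133 counts, with log2 folds of 0.05 (-0.06 to 0.15) and 0.04 (-0.03 to 0.11). HADHB, the beta subunit and thiolase, had 547, 451, 894 and 781 counts, with log2 folds of -0.25 (-0.44 to -0.07) and -0.18 (-0.32 to -0.04). HADHB was the only member besides AGPS and HADH whose interval lay wholly below 0 in both pairs, where 3.94% of all genes measured in both do. In RefSeq (GRCh38.p14) HADHA and HADHB start 307 bases apart on opposite strands, and the stretch before HADHB, chr2:26244689-26244938 on the plus strand, lies between the starts. It is shown because both subunits are transcribed away from it, with matches to GGGCGG, the GC box, on either strand in capitals.
Stretch between HADHA and HADHB: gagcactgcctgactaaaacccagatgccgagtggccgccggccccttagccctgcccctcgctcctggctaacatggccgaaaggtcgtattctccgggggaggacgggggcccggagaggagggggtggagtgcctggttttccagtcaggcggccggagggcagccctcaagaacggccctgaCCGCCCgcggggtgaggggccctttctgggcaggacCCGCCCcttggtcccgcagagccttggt

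Later steps included a lower thiolase and a higher electron carrier with ING5 siRNA. ACAA2, the mitochondrial thiolase, had 986 counts in control siRNA and 815 in ING5 siRNA (log2 -0.26, interval -0.39 to -0.12), against 880 and 890 in the vector pair (log2 0.04). ETFA, the alpha subunit of electron transfer flavoprotein, had 1649 and 1954 counts (log2 0.26, interval 0.17 to 0.36), against 1167 and 1091 (log2 -0.07, interval -0.19 to 0.05). The beta subunit gene ETFB stood at 0.06 with ING5 siRNA and at 0.15 in the library labelled JFK, and ETFDH, which hands the electrons to ubiquinone, at -0.04 and -0.14. Of the genes for unsaturated chains, the isomerases ECI1 and ECI2 stood at -0.24 (-0.62 to 0.14) and -0.20 (-0.40 to 0.00) with ING5 siRNA, and the reductase DECR1 at -0.05. In the library labelled JFK they stood at 0.11, -0.12 and -0.12.

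Promoter sequence was then read for the genes at the ends of the range, as the 250 bases before the RefSeq start. A start was found for 32 of the 40 genes, with 43 windows among them, and motifs were sought on both strands. The DR1 element, a tandem repeat of AGGTCA with 1 free base between the copies, to which PPAR-alpha binds with RXR, matched 0 of the 43 windows and 6 of 35116 windows of all genes (0.0171%). Its half-site AGGTCA matched 1 of 43, that of AGPS, against 12.1% of all windows. The GC box GGGCGG matched 33 of 43 windows (76.7%) against 42.6% of all, CCAAT 9 of 43 (20.9%) against 32.01%, and the ETS motif CCGGAAG 11 of 43 (25.6%) against 8.52%. These are descriptions of letters and not of sites in use. The window of AGPS, at chr2:177392523-177392772 on the plus strand, is shown with its AGGTCA match in capitals, which stands on the minus strand. That of HADH, at chr4:107989639-107989888 on the plus strand, is shown with GGGCGG in capitals, and that of CAT, at chr11:34438684-34438933 on the plus strand, with CCAAT in capitals. They stand for the lowest members and, with CAT, for one of the highest under ING5 siRNA.
AGPS: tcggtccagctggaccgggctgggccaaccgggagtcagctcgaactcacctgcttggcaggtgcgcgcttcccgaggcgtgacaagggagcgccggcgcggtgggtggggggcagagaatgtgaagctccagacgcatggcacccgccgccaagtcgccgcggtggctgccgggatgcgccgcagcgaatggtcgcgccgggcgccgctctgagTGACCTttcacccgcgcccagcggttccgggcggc
HADH: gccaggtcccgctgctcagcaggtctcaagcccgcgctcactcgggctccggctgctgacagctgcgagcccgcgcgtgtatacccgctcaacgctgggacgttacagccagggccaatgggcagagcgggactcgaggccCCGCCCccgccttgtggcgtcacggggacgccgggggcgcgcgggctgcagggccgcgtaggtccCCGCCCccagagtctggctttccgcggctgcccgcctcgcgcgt
CAT: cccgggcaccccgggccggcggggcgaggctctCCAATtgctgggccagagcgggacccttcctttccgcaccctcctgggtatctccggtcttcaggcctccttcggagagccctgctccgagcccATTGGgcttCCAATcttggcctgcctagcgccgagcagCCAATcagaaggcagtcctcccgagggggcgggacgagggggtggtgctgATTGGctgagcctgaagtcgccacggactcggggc

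Read against each other, AGPS holds 1 half-site, HADH 2 GC boxes and CAT 5 CCAAT boxes, each in capitals. The GC box also has a match in the windows of AGPS and CAT, and CCAAT in that of HADH, so the lowest members and CAT are not told apart by the GC box.

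Base composition moved with the folds of the vector pair. GC content was taken from the longest protein-coding transcript of GENCODE 29, available for 39 of the 39 measured members and for 92.6% of genes measured in both pairs. In the library labelled JFK all 14 members with a GC content under 45% stood below 0 (median -0.12), as did 77.9% of 3891 such genes overall (median -0.13). Of the 8 members at 55% or more, 1 stood below 0 (median 0.10), as did 17.8% of 3107 such genes (median 0.15). Across the 39 members Spearman's rho between GC content and fold was 0.63 in this pair and -0.11 in the siRNA pair, and across 10326 genes 0.58 and -0.004. Genes share the libraries and are not independent replicates, so these are descriptions.

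Set against genes within 1 percentage point of GC content, 18 members of the vector pair stood above and 21 below the median of such genes. PEX6 lay 0.19 above a median of 0.17, CPT1A 0.11 above 0.04, and ACADVL 0.05 below 0.13. HADHB lay 0.22 below a median of -0.03. AGPS lay 0.24 below a median of -0.17, HADH 0.42 below 0.00 and ACAD11 0.38 below -0.01. The part of base composition in each member's fold was not tested.

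**Figure D3:**
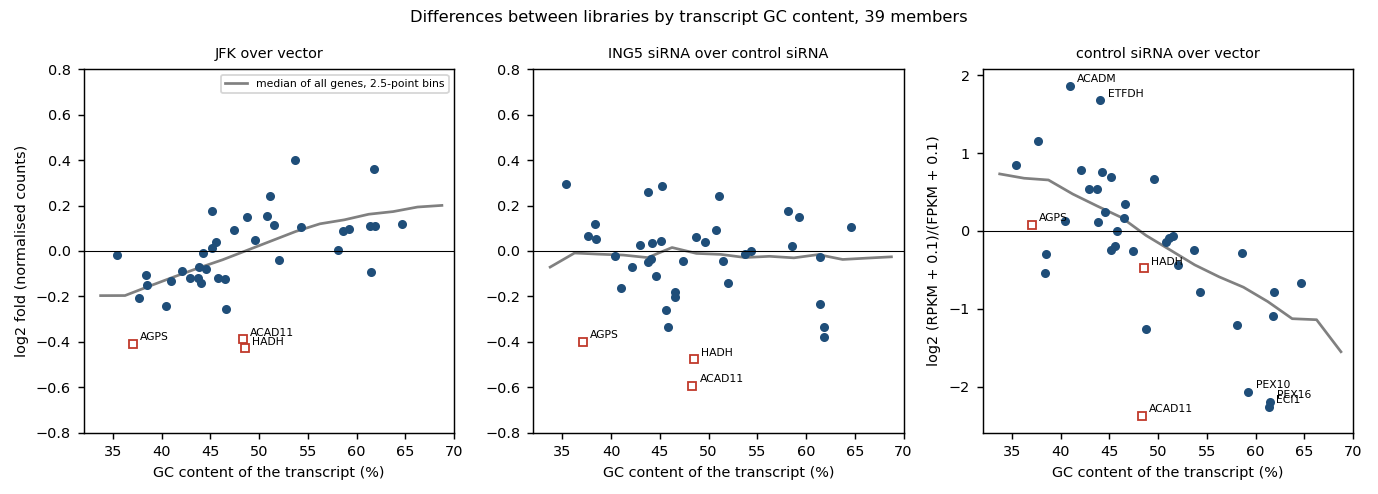
Difference between libraries (y axes, log2) against transcript GC content (x axes, percent) for the 39 measured members, in the library labelled JFK over vector, ING5 siRNA over control siRNA, and control siRNA over vector. Grey lines are medians of all genes in 2.5-point bins and open red squares are AGPS, HADH and ACAD11; the grey line runs upward in the first panel, stays near 0 in the second and runs downward in the third.

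Levels per length were highest for ACADVL or ETFA in each library. ACADVL stood at 176 and 182 FPKM in vector and the library labelled JFK, and its RPKM in control siRNA and ING5 siRNA were 145 and 147. ETFA stood at 121 and 112 FPKM, and 131 and 157 RPKM, so it was below ACADVL in the first 3 libraries and above it in ING5 siRNA. HADHA stood at 69.4, 69.6, 110 and 113 in the same order. The lowest was ACOX2, listed at 0.18 and 0.12 FPKM and 0.17 and 0.11 RPKM. The ACOX2 units disagree as well, with listed counts 0.814 times the implied one in control siRNA and 0.847 times in ING5 siRNA. Unlike AGPS, HADH and ACAD11, it thus shows a gap in the control table too. ACOX3 stood at 2.11, 2.65, 1.77 and 1.75, and EHHADH at 2.63, 2.4, 4.6 and 4.37. Neighbours in the order, such as ECI1 and ACAA2 in vector at 64.2 and 62.9 FPKM, are not told apart by 1 library.

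**Figure D4:**
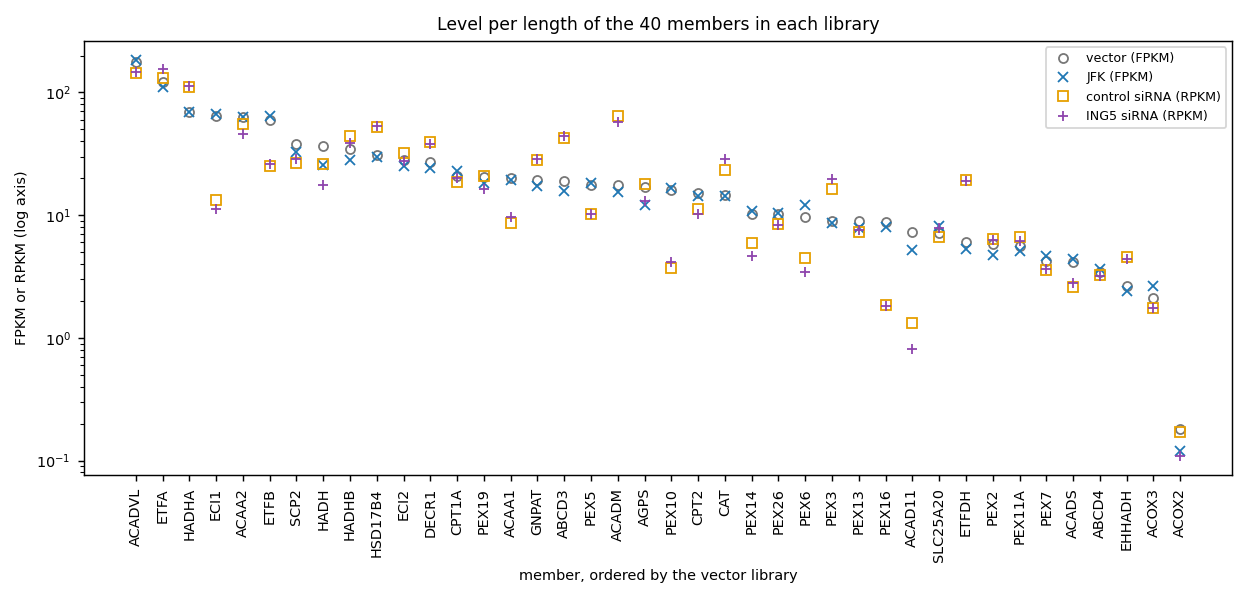
Deposited level per length (y axis, FPKM or RPKM on a log axis) of the 40 members in each of the 4 libraries, ordered by the vector library (x axis). Circles and crosses are the vector pair and squares and pluses the siRNA pair; ACADVL is highest in vector at 176 FPKM, ACOX2 lowest at 0.18, and ACAD11, ECI1, PEX10 and PEX16 stand lower in the siRNA pair while ACADM and ETFDH stand higher.

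The controls differed from each other far more than each treated library from its control. The tables of the pairs were normalised separately and hold different kinds of count, so control siRNA against vector compares preparation and counting along with the cells, and these cannot be told apart. With 0.1 added, 18 of 39 members (46.2%) stood at least 1.5-fold apart between the controls, 8 higher and 10 lower in control siRNA, against 54.8% of 11148 genes measured in both pairs. ACADM stood at 17.5 FPKM in vector and 63.8 RPKM in control siRNA (log2 1.86), ETFDH at 6.04 and 19.5 (1.68) and ABCD3 at 19.0 and 42.3 (1.15). In the other direction ACAD11 stood at 7.24 and 1.31 (-2.38), ECI1 at 64.2 and 13.3 (-2.26), PEX16 at 8.88 and 1.86 (-2.20) and PEX10 at 16.0 and 3.74 (-2.07). GC content followed this difference as well, with a Spearman's rho of -0.69 over the 39 members and -0.63 over 10326 genes.

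Among peroxisome genes outside the set a few stood past 1.5-fold, too few to set them apart from all measured genes. Of 34 further peroxisome genes 26 were measured in the vector pair, with 0 at least 1.5-fold higher and 1 lower, where 1.5% and 2.07% of all measured genes were. In the siRNA pair 25 were measured, with 1 higher and 2 lower, where 4.01% and 4.40% were. The counting interval lay wholly below 0 for 6 of 26 in the first pair (11.2% of all genes) and for 7 of 25 in the second (20.6%), and wholly above 0 for 0 (14.3%) and 4 (18.3%). The median log2 folds were -0.05 and -0.12, against 0.00 and -0.01 over all measured genes. ECH1, a dienoyl-CoA isomerase, was the lower one in the library labelled JFK, with 1141 and 733 counts (log2 -0.61, interval -0.75 to -0.48), and was also lower with ING5 siRNA, with 680 and 445 (log2 -0.60, interval -0.77 to -0.42). PXMP2, a channel protein of the peroxisomal membrane, had 77 and 39 counts in the siRNA pair (log2 -0.96, interval -1.56 to -0.39) and 142 and 167 in the vector pair. CROT, which makes carnitine esters of shortened chains for export, had 248 and 410 counts in the siRNA pair (log2 0.74, interval 0.51 to 0.97) and 94 and 86 in the vector pair.

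ECH1 shares the trait of AGPS, HADH and ACAD11 in the ING5 siRNA table. Its listed count is 1.05 times the implied one, and its RPKM ratio is 0.631 within 2e-07. ANGPTL4, a PPAR target, has a listed count 1.065 times the implied one and a ratio of 0.675. PRKAA1, a catalytic subunit of AMP-activated kinase, has a smaller gap, 1.016 times, and a ratio of 0.6273, which has 4 decimals.

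Regulators of these genes stood on both sides of control with ING5 siRNA. PPARA, the gene for PPAR-alpha, had 372 counts in control siRNA and 550 in ING5 siRNA (log2 0.58, interval 0.39 to 0.77), and PPARGC1A, its coactivator, had 328 and 188 (log2 -0.79, interval -1.05 to -0.52). In the vector pair PPARA had 205.57 and 220.09 counts (log2 0.12) and PPARGC1A 164 and 167 (log2 0.05). ANGPTL4 had 296 and 213 counts in the vector pair (log2 -0.45) and 201 and 143 in the siRNA pair (log2 -0.47). Of 17 PPAR regulators and targets 13 were measured in each pair, with medians of 0.12 and -0.07. In the first pair 0 were at least 1.5-fold apart, where 1.5% of all measured genes were higher and 2.07% lower. In the second 0 were higher and 1 was lower, where 4.01% and 4.40% were.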

How the data were processed

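Each library had a deposited gene table with a count column and a level per length. For vector and JFK the authors deposited expected counts, many of them not whole numbers, beside FPKM. For the siRNA libraries the authors deposited whole-number counts beside RPKM. Gene lengths, in bases, are those the authors deposited, per the file headers. FastQC, fastp, STAR, DESeq2 and the builds GRCh37 and hg19 are named without roles in the submitters' processing notes; no counter is named there.

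Identifiers were matched to RefSeq symbols (GRCh38.p14). For the siRNA pair 2 duplicated identifiers were left out, as was 1 gene with a blank count in the vector pair. Groups came from the transfection label. Counts were scaled with TMM (trims 0.3 and 0.05) in Python 3.11.15, numpy 2.4.6, pandas 2.3.3 and scipy 1.17.1; expected counts were rounded for intervals only, and figures used matplotlib 3.10.9. The calculation of the folds was tested on simulated counts with planted changes and counting error only. That test does not cover variation between libraries or entries whose units disagree. A count of 0 allows up to 3 counts, 0.326 to 0.418 CPM. The members, lists and alternatives were chosen with earlier results of these data known. Named genes are those at least 1.5-fold apart, the 4 highest and 4 lowest per pair, the extremes of each role, those whose units disagree and those under the filter, and likewise the extremes of other lists; further members and FBXO42, ING5 and PRKAA1 are named for completeness. Some results are not reported here. Agreement of count and level was judged within 0.001 counts in the siRNA tables and, between the libraries of the vector pair, within 2% beyond rounding. Alternatives were other scalings, 5 added, no filter or at least 100, the deposited level, leaving out genes whose units disagree and, added after seeing the data, leaving out AGPS, HADH and ACAD11.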

Additional observations from a re-analysis of the deposited data

How the results depend on the processing

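The number of members at least 1.5-fold lower with ING5 siRNA was 1, ACAD11, and became 0 with total-count scaling, with 5 added, at a mean of at least 100, without genes whose count and RPKM disagree, and without AGPS, HADH and ACAD11; the last 3 settings leave ACAD11 out. The other counts of members 1.5-fold apart were 0 under all alternatives run. The median fold of the members ran from -0.06 to 0.00 in the vector pair and from -0.04 to -0.01 in the siRNA pair. Of 597 single-gene values under the alternatives, all lay within the counting interval of the reported fold and 7 had another sign, in genes with a reported size of at most 0.04. The other filters and the settings that leave genes out do not change any fold. Their part of the 597 values could therefore not move, and only other scalings, 5 added and the deposited level could. Leaving out a replicate was not possible with 1 library per group. No paired analysis was possible because each group holds 1 library and the labels carry no replicate numbers. Counts under about 50, as for PEX7, ACOX3, PEX16 and ACADS in some libraries, give intervals wider than 1.5-fold.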

Other observations

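Genes that bring fatty acids to these pathways differed at a few points with ING5 siRNA. Of 18 genes for fatty acid uptake and activation 14 were measured there, with 3 at least 1.5-fold higher and 0 lower (median 0.09), where 4.01% and 4.40% of all measured genes were. MLYCD, the malonyl-CoA decarboxylase whose substrate inhibits CPT1A, had 36 counts in control siRNA and 77 in ING5 siRNA (log2 1.1, interval 0.52 to 1.73), and 90 and 98 in the vector pair (log2 0.15). ACSM3, a medium-chain acyl-CoA synthetase, had 16 and 44 (log2 1.45, interval 0.62 to 2.40). ACSL1, a long-chain synthetase, had 21 and 32 (log2 0.61, interval -0.22 to 1.49). In the vector pair 1 of 13 was 1.5-fold higher, where 1.5% of all measured genes were: the transporter gene SLC27A1, with 39.41 and 62.07 counts (log2 0.67, interval 0.09 to 1.31).

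Of 17 further mitochondrial genes 14 were measured in the siRNA pair, with 12 above 0, where 48.6% of all measured genes were, and 1 at least 1.5-fold lower, where 4.40% were. The lower one was the thioesterase gene ACOT2, with 92 and 60 counts (log2 -0.60, interval -1.09 to -0.12). In the vector pair 15 were measured, with 9 above 0 against 50.5% of all measured genes, and 0 were 1.5-fold apart. OXCT1, which lets cells use ketone bodies, had 5003 and 6127 counts in the siRNA pair (log2 0.31, interval 0.25 to 0.36) and 1632 and 1348 in the vector pair (log2 -0.25, interval -0.36 to -0.15).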
